A study of Homo sapiens with 18 samples.

Results

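The genes considered here are those carried by human mitochondrial DNA itself. They were taken as every row of the count table whose gene symbol starts with MT-, which gave 37 of the 61860 genes in the table: 13 mRNAs, 2 rRNAs and 22 tRNAs, all on the mitochondrial chromosome. Nuclear pseudogene copies were left out of the set and are described apart. By strand, 28 of the 37 are read out in the heavy-strand transcript, among them 12 mRNAs, both rRNAs and 14 tRNAs. The light-strand transcript holds the other 9, which are MT-ND6 and 8 tRNAs. The libraries were made from H1, an established human embryonic stem cell line, carrying lentiviral shRNA against NAT10 (group NAT10 knockdown) or a negative control shRNA (sh control). NAT10 is the acetyltransferase that writes N4-acetylcytidine (ac4C) in RNA. The vector also marked transduced cells with GFP, by which they were enriched, and puromycin was used for selection. Transcription was then blocked with actinomycin D for 0, 1.5 or 3.5 h, which gave 6 groups of 3 libraries. The series asks about transcript half-lives in relation to ac4C. Whether libraries within a group were grown as separate cultures is not in the labels, so the p-values given here measure only the spread between these libraries, which may be technical.

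Human mitochondrial DNA is a small circle that is copied into RNA from both strands as long polycistronic transcripts. In these, tRNAs sit between most of the rRNA and mRNA genes, and the endonucleases that cut the tRNAs out at their ends free the neighbouring RNAs. The mRNAs encode core subunits of respiratory complexes I, III and IV and of ATP synthase, and the rRNAs and tRNAs serve the mitochondrial ribosome that translates them. Most mitochondrial mRNAs receive a short poly(A) tail after cleavage, while MT-ND6 mRNA is known for lacking a stable one and mature tRNAs end in CCA. The libraries were enriched with oligo(dT) beads, so counts on tRNA and rRNA genes are of fragments that came through that step.

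The libraries held 15037492 to 15519197 counts each, of which ERCC spike-in RNA, added to the purified RNA, took 0.0857% to 0.544%. The targeted gene NAT10 was at 20.4, 21.2 and 24.1 CPM (counts scaled to library size) in 0 h knockdown libraries, against 209, 211 and 210 in control, a log2 change of -3.26 ± 0.064 (SE). All 8 pluripotent stem cell markers checked were detected in every group. Their summed level was 4208 to 4886 CPM in 0 h knockdown libraries and 5801 to 6003 in 0 h control libraries. At 0 h 6 of the 8 were lower in knockdown and 2 not called, where 28.3% of all genes tested were lower. At 1.5 h 4 were lower and 2 higher, where 26.2% of all genes were lower and 28.4% higher. At 3.5 h 2 were lower and 3 higher, where 26.4% were lower and 35.0% higher. Of 8 fibroblast or stroma markers, 5 reached 1 CPM, with a summed level of 1099 to 1464 CPM in 0 h knockdown libraries and 588 to 656 in 0 h control libraries. At 1.5 h the sum was 1444 to 1532 CPM in knockdown and 677 to 730 in control libraries, and at 3.5 h 1372 to 1440 in knockdown and 865 to 924 in control libraries. The members did not all move alike. At 0 h COL1A1, COL1A2 and PDGFRB were higher, at 2.38, 1.15 and 1.10 on the log2 scale, THY1 was lower at -1.56, and POSTN was at -0.06 and not called. At 1.5 h 3 of the 5 tested were higher and 2 lower, and at 3.5 h 2 were higher and 3 lower. Of 4 trophoblast markers 2 reached 1 CPM, with a summed level of 8.47 to 11.3 CPM in 0 h knockdown libraries and 3.73 to 5.35 in 0 h control libraries. Of 4 neural ectoderm markers 1 reached 1 CPM, with a summed level of 4.05 to 5.33 CPM in 0 h knockdown libraries and 2.75 to 4.04 in 0 h control libraries. Of the 2 tested at 0 h, 1 was higher and 1 not called. The part of such cells in the results was not tested. A single library stood apart from its group: 0 h knockdown replicate 1 differed from the other two with chi-squares per degree of freedom of 15.1 and 21.6, against 1.39 to 6.99 for every other replicate pair. The mitochondrial genes together took 4.51% to 4.64% of gene counts in 0 h knockdown libraries and 5.29% to 5.50% in 0 h control libraries. At 3.5 h they took 6.21% to 6.29% in knockdown libraries and 5.17% to 5.48% in control libraries.

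Of the 37 genes, 23 passed a filter on low counts (edgeR's filterByExpr): all 13 mRNAs, both rRNAs and 8 tRNAs. No library held more than 5 counts of any of the other 14 tRNAs, and those for lysine, glutamine and asparagine (MT-TK, MT-TQ and MT-TN) were listed at 0 in all 18. The 4 tRNAs shown here are those on which the tRNA results turn most, at the ends of the transcripts and beside MT-ND6. Written 5′ to 3′ as the DNA letters of the RNA, with the anticodon in capitals, they come from GENCODE v29 transcripts on GRCh38: MT-TF (phenylalanine) at chrM:577-647 and MT-TT (threonine) at chrM:15888-15953 on the + strand, and MT-TP (proline) at chrM:15956-16023 and MT-TE (glutamate) at chrM:14674-14742 on the - strand. MT-TF abuts the small-subunit rRNA gene MT-RNR1 at chrM:648-1601 and is the gene nearest the start of the heavy-strand transcript. MT-TT abuts MT-CYB at chrM:14747-15887 and closes the gene-bearing part of that transcript, while MT-TP opens the gene-bearing part of the light-strand transcript.
MT-TF: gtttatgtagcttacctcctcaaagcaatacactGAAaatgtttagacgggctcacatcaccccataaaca
MT-TT: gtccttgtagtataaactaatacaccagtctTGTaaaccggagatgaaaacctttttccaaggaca
MT-TP: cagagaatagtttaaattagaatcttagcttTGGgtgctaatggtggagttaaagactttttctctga
MT-TE: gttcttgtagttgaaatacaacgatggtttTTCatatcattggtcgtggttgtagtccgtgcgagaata

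Levels ranged widely among the long RNAs. CPM per kilobase adjusts for gene length, but not for capture by the oligo(dT) beads or for reads shared by overlapping genes. By it, the large-subunit rRNA gene MT-RNR2 ranked 1 of 15 mRNA and rRNA genes in the 0 h libraries of both genotypes. Over all 9 libraries of a genotype its level ran between 6266 and 13336 CPM per kilobase in knockdown (median 8930) and between 9464 and 12619 in control (median 10103). The lowest of the 15 at 0 h was MT-RNR1 in knockdown libraries and MT-ND6 in control libraries. MT-RNR1, rank 15 in knockdown, ranked 11 in control. The ATP synthase subunit gene MT-ATP8 ranked 2 in knockdown and 4 in control, and the complex IV genes MT-CO3 and MT-CO2 ranked 3 and 4 in knockdown and 2 and 3 in control.

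Before actinomycin D, most mitochondrial RNAs were lower in knockdown than in control cells relative to the typical transcript, the tRNAs by more in the median than the mRNAs. Levels here are CPM after TMM scaling, which sets each library by its typical gene, and a gene counts as changed at an adjusted p below 0.05 (edgeR quasi-likelihood test over the 16760 genes that passed the filter, Benjamini-Hochberg). At 0 h, 19 of the 23 genes were lower and 1 was higher, where 52.1% of all genes tested changed, 23.8% upwards and 28.3% downwards. The median log2 change was -1.38 over the 8 tRNAs and -0.24 over the 13 mRNAs, against -0.04 over all genes tested. By strand, the median was -2.19 over the 4 heavy-strand tRNAs tested and -1.16 over the 4 light-strand tRNAs. With any 1 library left out 19 or 20 genes were called, where 46.7% to 56.9% of all genes were. Without 0 h knockdown replicate 1 it was 18 lower and 1 higher, where 31.2% of all genes were lower and 25.7% higher.

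MT-TF was the largest fall. It was at 3.32, 2.42 and 2.46 CPM in knockdown libraries, which rest on 56, 41 and 42 counts, against 34.2, 33.6 and 33.2 CPM in control libraries, from 523, 515 and 510 counts. The groups lie more than an order of magnitude apart without overlap, and the log2 change was -3.62 ± 0.17 (SE, adjusted p = 1.60e-14). MT-TT rested on few counts, 4, 8 and 7 in knockdown libraries against 35 in each control library. Its level was 0.237, 0.473 and 0.411 CPM in knockdown libraries, below the 2.28 to 2.29 CPM of every control library, a log2 change of -2.59 ± 0.27. The valine tRNA MT-TV, between the 2 rRNA genes, changed by -1.80 ± 0.33 on the log2 scale, from 4 to 9 counts in knockdown and 16 to 29 in control libraries. The other heavy-strand tRNA measured, leucine tRNA MT-TL1, directly after MT-RNR2, changed by -0.71 ± 0.19. Its counts did not overlap, at 36 to 43 in knockdown and 52 to 69 in control libraries. All 4 light-strand tRNAs that could be tested were lower too. The proline tRNA MT-TP was at 9.89, 7.03 and 7.80 CPM in knockdown libraries and 22.4, 26.4 and 24.4 CPM in control libraries, with no overlap (log2 change -1.57 ± 0.10). Cysteine tRNA MT-TC changed by -1.19 ± 0.17, and tyrosine tRNA MT-TY, its neighbour that shares 1 base with it, by -1.14 ± 0.16. Glutamate tRNA MT-TE was nearest the threshold, at 1.48, 1.77 and 1.70 CPM in knockdown libraries and 2.29, 1.96 and 2.93 CPM in control libraries (-0.53 ± 0.22, adjusted p = 0.0464).

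**Figure D1:**
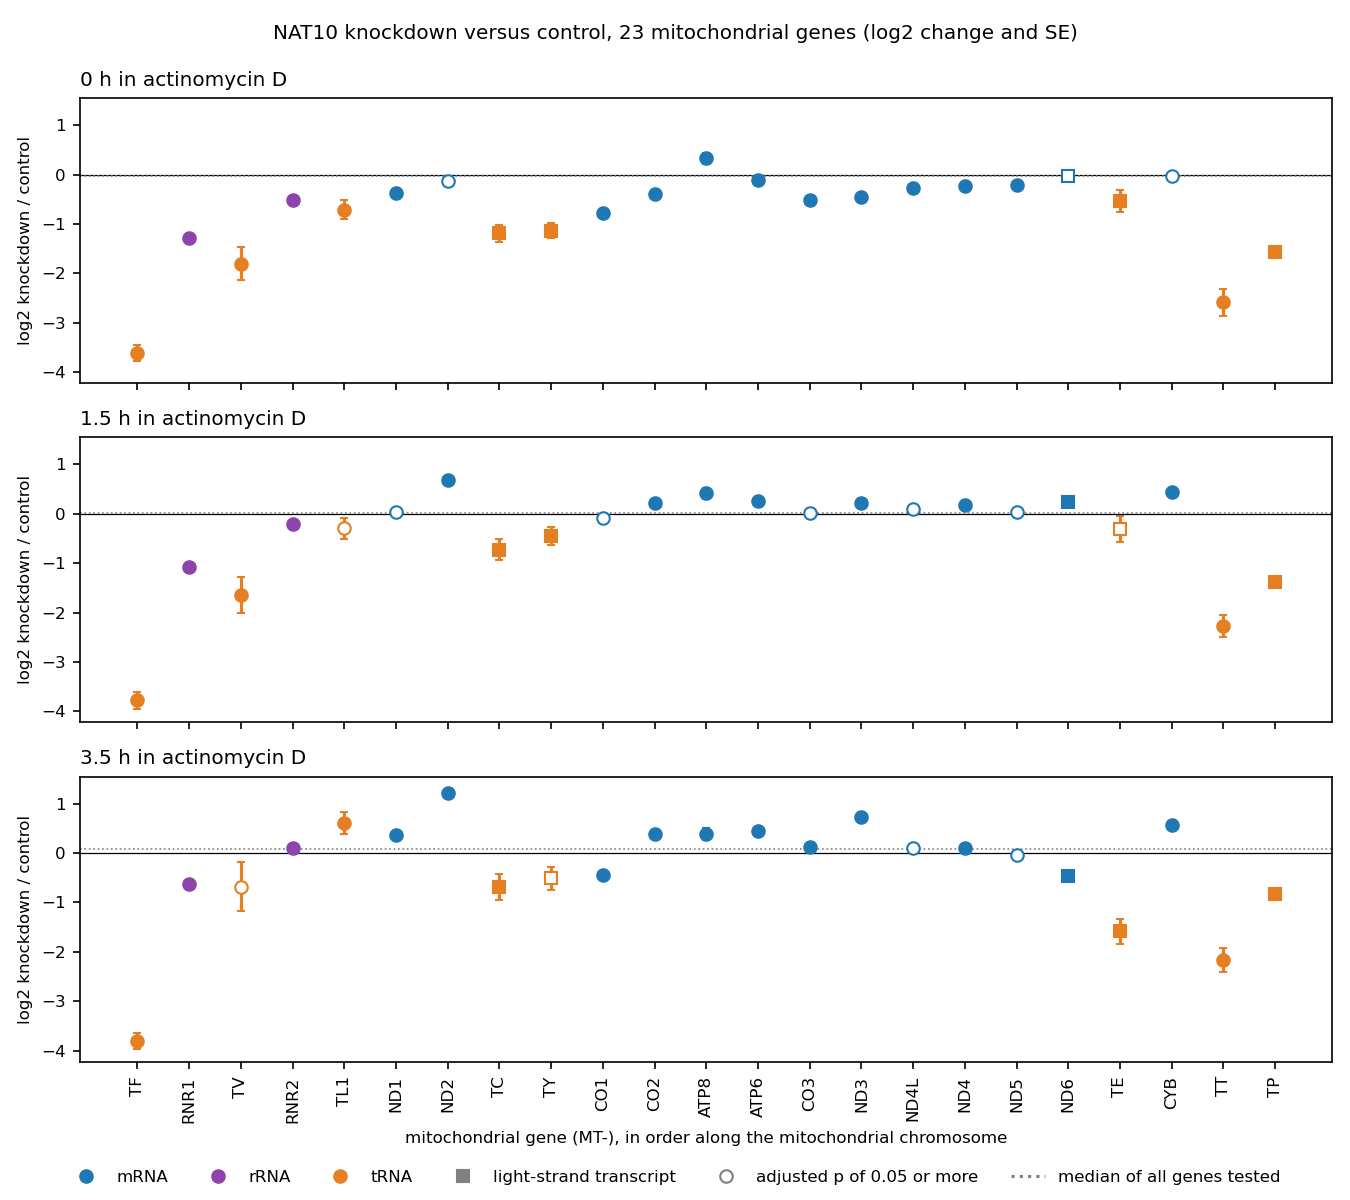
Log2 change, NAT10 knockdown over control, of the 23 mitochondrial genes tested (y axis, points with SE bars; filled where the adjusted p was below 0.05) in their order along the mitochondrial chromosome (x axis), at 0, 1.5 and 3.5 h in actinomycin D. MT-TF lies near -3.6 to -3.8 at every time, MT-RNR1 lies below MT-RNR2 at every time, and MT-ND2 is at -0.12 at 0 h, 0.69 at 1.5 h and 1.23 at 3.5 h (TMM scaling; 0.14 at 1.5 h and 0.16 at 3.5 h when scaled by ERCC counts).

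Both rRNAs were lower at 0 h, by different amounts. MT-RNR1, the rRNA of the small ribosomal subunit, was at 842, 749 and 715 CPM in knockdown libraries and 1833, 1868 and 1930 CPM in control libraries. The groups did not overlap, and the log2 change was -1.29 ± 0.047 (adjusted p = 2.44e-16). MT-RNR2, the rRNA of the large subunit, was at 11374, 10129 and 9769 CPM in knockdown libraries and 14784, 14754 and 15181 CPM in control libraries, again without overlap (log2 change -0.52 ± 0.043, adjusted p = 5.64e-10). The ratio of MT-RNR2 to MT-RNR1 counts, which no library scaling can change, was therefore 13.5 to 13.7 in knockdown and 7.87 to 8.07 in control libraries.

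Among mRNAs at 0 h, 9 of 13 were lower, 1 was higher and 3 were not called. The 3 complex IV subunits were all lower. MT-CO1, the catalytic subunit, had the largest mRNA fall, at 3950, 3998 and 3764 CPM in knockdown libraries against 7045, 6767 and 6329 CPM in control libraries (-0.78 ± 0.049 on the log2 scale, adjusted p = 4.54e-12). No knockdown library reached the lowest control library. MT-CO3 changed by -0.52 ± 0.041 and MT-CO2 by -0.39 ± 0.047. Of the 7 complex I subunits, MT-ND3, MT-ND1, MT-ND4L, MT-ND4 and MT-ND5 were lower, at -0.45, -0.37, -0.28, -0.24 and -0.21. MT-ND2 (-0.12, adjusted p = 0.0864) and the light-strand gene MT-ND6 were not called. MT-ND6 was at 404, 510 and 521 CPM in knockdown libraries and 472, 544 and 445 CPM in control libraries, overlapping ranges (-0.03 ± 0.079). MT-CYB, the complex III subunit, was at -0.04 ± 0.045 and not called. The 2 ATP synthase subunits share 46 bases of overlapping reading frames and 1 transcript. MT-ATP8 was the only mitochondrial gene called higher, at 1321, 1251 and 1312 CPM in knockdown libraries and 1041, 1010 and 1049 CPM in control libraries (0.33 ± 0.11), while MT-ATP6 was called lower at -0.11 ± 0.036. How the authors' counting split reads in the overlap is not stated in the labels or the files' headers, so this pair is uncertain, as are MT-ND4L and MT-ND4, which share 7 bases.

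In cells held in actinomycin D, 8 of 13 mRNAs at 1.5 h and 9 of 13 at 3.5 h were higher in knockdown than in control relative to the typical transcript, though not when scaled by ERCC spike-in. MT-RNR1 and most of the tRNAs tested were lower at both times. At 1.5 h the test called 8 mitochondrial genes in each direction, against 54.6% of all genes changed, 28.4% upwards and 26.2% downwards. All 8 that were higher were mRNAs, and the mRNA median was 0.23 where that of all genes was 0.03. MT-ND2 led them, at 1006, 1028 and 952 CPM in knockdown libraries against 612, 606 and 637 CPM in control libraries (0.69 ± 0.059, adjusted p = 9.62e-10), with no overlap. MT-CYB was 0.43 ± 0.045 higher, and MT-ND6 was 0.25 ± 0.080 higher at 424, 428 and 379 CPM in knockdown libraries and 330.4, 360.5 and 347 CPM in control libraries. The 8 lower genes were both rRNAs and 6 tRNAs. MT-RNR1 was at 1157, 1104 and 1119 CPM in knockdown libraries and 2398, 2430 and 2336 CPM in control libraries (-1.08 ± 0.047). MT-RNR2 changed by -0.20 ± 0.043, at 14079, 13060 and 13922 CPM in knockdown libraries and 15812, 15549 and 15751 CPM in control libraries. MT-TF was at 3.27, 1.62 and 2.01 CPM in knockdown libraries and 26.1, 39.3 and 29.4 CPM in control libraries, a log2 change of -3.78 ± 0.18. MT-TT and MT-TP were at -2.27 ± 0.22 and -1.38 ± 0.11. For each of these 5 genes the groups did not overlap.

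At 3.5 h it called 11 upwards and 8 downwards, against 61.4% of all genes changed, 35.0% upwards and 26.4% downwards, and 9 of the 13 mRNAs were among the higher. The mRNA median was 0.37, where that of all genes was 0.08. MT-ND2 had the largest rise, at 1217, 1129 and 1216 CPM in knockdown libraries against 475, 512 and 534 CPM in control libraries. The knockdown level was 2.34-fold the control level (log2 change 1.23 ± 0.060, adjusted p = 2.67e-14). MT-ND3 followed at 0.74 ± 0.080, MT-CYB at 0.56 ± 0.045, MT-ATP6 at 0.44 ± 0.037 and MT-CO2 at 0.39 ± 0.047. Only 2 mRNAs were lower. MT-CO1 was at 6220, 6261 and 6084 CPM in knockdown libraries and 7965, 8501 and 8773 CPM in control libraries (-0.44 ± 0.049). MT-ND6 was at 367, 356 and 362 CPM in knockdown libraries and 471, 529 and 492 CPM in control libraries (-0.46 ± 0.080, adjusted p = 2.60e-05), with no overlap, whereas at 1.5 h it had been called higher. The rRNAs went opposite ways, with MT-RNR1 at 2428, 2443 and 2455 CPM in knockdown libraries and 3777, 3812 and 3729 CPM in control libraries (-0.63 ± 0.046). MT-RNR2 was at 20791, 20602 and 20541 CPM in knockdown libraries and 18977, 19673 and 18870 CPM in control libraries (0.11 ± 0.043, adjusted p = 0.0337). Among tRNAs, MT-TL1 was the only one higher, at 2.63, 2.29 and 3.30 CPM in knockdown libraries and 1.82, 2.18 and 1.38 CPM in control libraries (0.61 ± 0.22). MT-TF had 52, 48 and 53 counts in knockdown libraries and 599, 728 and 650 in control libraries, a log2 change of -3.80 ± 0.16 with no overlap. MT-TT, MT-TE, MT-TP and MT-TC were lower, with log2 changes of -2.16, -1.58, -0.82 and -0.68, and MT-TV and MT-TY were not called.

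**Figure D2:**
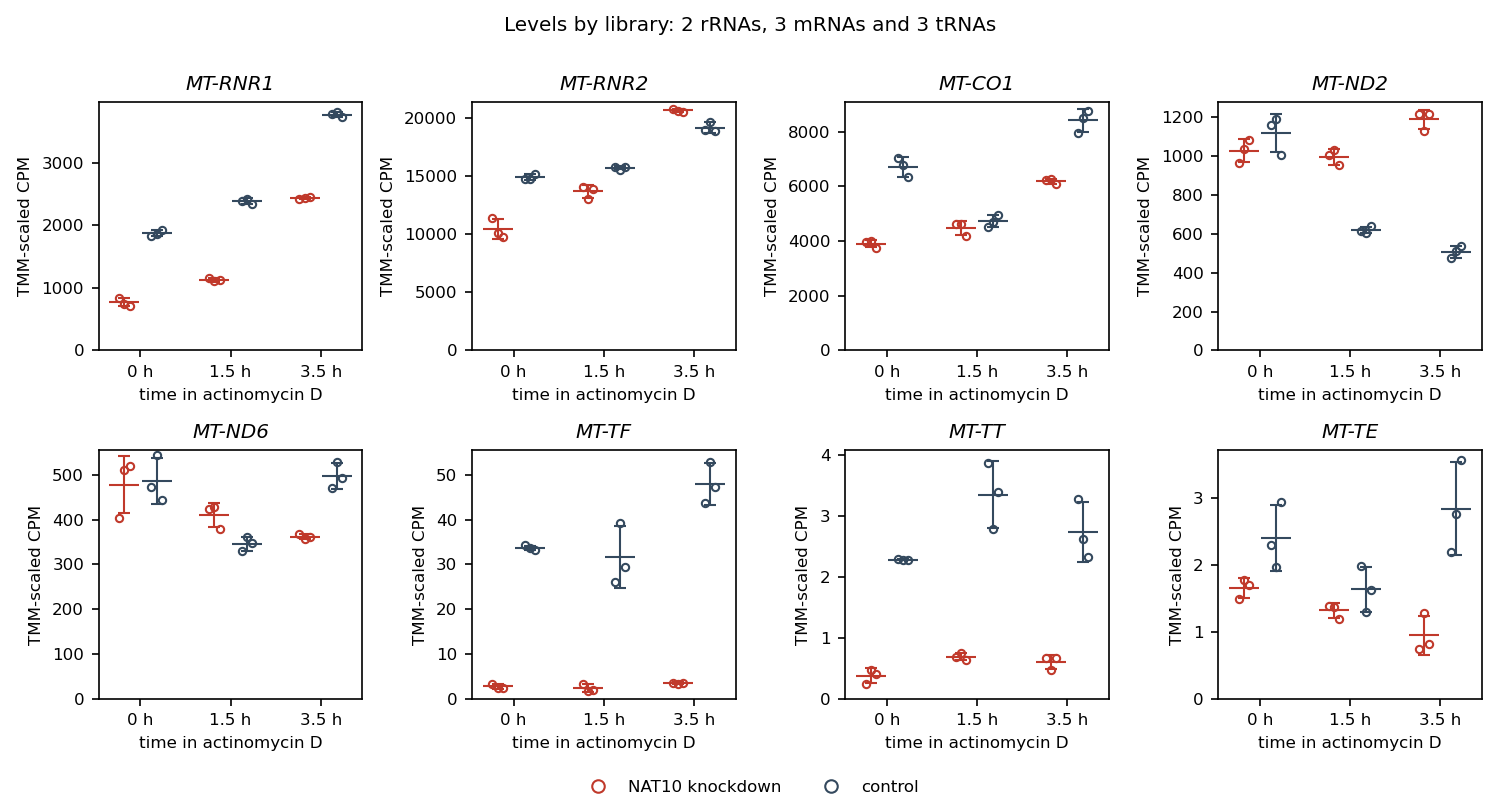
TMM-scaled level in CPM (y axis, from 0) of MT-RNR1, MT-RNR2, MT-CO1, MT-ND2, MT-ND6, MT-TF, MT-TT and MT-TE in each library, NAT10 knockdown left of control at each time in actinomycin D (circles, libraries; bars, mean and SD of 3). Knockdown libraries of MT-RNR1, MT-TF and MT-TT lie below every control library of the same time, while the order of MT-RNR2 and of MT-ND6 turns between times; scaled by ERCC counts instead, MT-RNR2 at 3.5 h was lower in knockdown at -0.96 and MT-ND6 at 1.5 h was at -0.30.

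The direction of the smaller changes depended on what each library was scaled by. Scaled by summed ERCC counts, which also count a change shared by most transcripts, the median of all genes moved to -0.71, -0.52 and -0.98 at 0, 1.5 and 3.5 h. On that scale 22, 15 and 20 of the 23 mitochondrial genes were lower and the rest were not called, where 64.1%, 49.7% and 71.7% of all genes were lower, so the mRNA rises at 1.5 and 3.5 h hold only relative to the typical transcript. MT-ND2 at 3.5 h was then at 0.16 (adjusted p = 0.457) and MT-CYB at -0.51, against a median of -0.98 over all genes. The falls in MT-RNR1, MT-TF and MT-TT were called at all 3 times on that scale, MT-TT at -3.28, -2.83 and -3.20. ERCC RNA took 0.150% to 0.211% of counts in 0 h knockdown libraries and 0.0857% to 0.122% in 0 h control libraries. It was added to the purified RNA, so these shares do not by themselves measure RNA per cell. In bulk samples fewer cells of a type and less RNA per cell cannot be told apart. Scaling by the summed counts of the 12 heavy-strand mRNAs was added after the data were seen. It holds the sum of these mRNAs equal, so the mRNA median of 0.09 at 0 h on it is no test of their fall. Relative to that sum, MT-CO1, itself part of it, was lower at -0.45, MT-RNR1 at -0.96 and MT-TF at -3.29.

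Ratios within a library do not depend on scaling, and those of MT-RNR2 to MT-RNR1, MT-TF to MT-RNR1 and MT-TT to MT-CYB did not overlap between the genotypes at any time. The MT-RNR2 to MT-RNR1 count ratio was 11.8 to 12.4 in knockdown and 6.40 to 6.74 in control libraries at 1.5 h, and 8.37 to 8.56 in knockdown and 5.02 to 5.16 in control libraries at 3.5 h. It fell with time in both genotypes and was higher in every knockdown library than in every control library of any time. MT-TF counts were 0.323% to 0.394% of MT-RNR1 counts in 0 h knockdown libraries and 1.72% to 1.87% in 0 h control libraries, although both genes lie side by side on 1 transcript. At 3.5 h the share was 0.132% to 0.145% in knockdown and 1.16% to 1.39% in control libraries. MT-TT counts were 0.00576% to 0.0117% of the counts of its neighbour MT-CYB in 0 h knockdown libraries and 0.0545% to 0.0590% in 0 h control libraries. All tRNAs together made up 0.0361% to 0.0661% of mitochondrial counts in the 9 knockdown libraries and 0.137% to 0.171% in the 9 control libraries. MT-ND6 made up 1.37%, 1.71% and 1.74% of mitochondrial mRNA counts in 0 h knockdown libraries and 1.23%, 1.43% and 1.25% in 0 h control libraries. After 3.5 h its share was 0.891% to 0.911% in knockdown and 1.35% to 1.43% in control libraries, with no overlap, whereas at 0 h the genotypes overlapped. The light-strand genes together, MT-ND6 and the light-strand tRNAs, made up 1.02% to 1.33% of mitochondrial counts in 0 h knockdown libraries and 0.930% to 1.09% in 0 h control libraries. At 3.5 h they made up 0.592% to 0.604% in knockdown and 0.871% to 0.921% in control libraries. MT-ND6 held most of these counts, so the summed share largely repeats its own. The strand setting of the counting is not given, so RNA of the opposite strand may be among them.

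**Figure D3:**
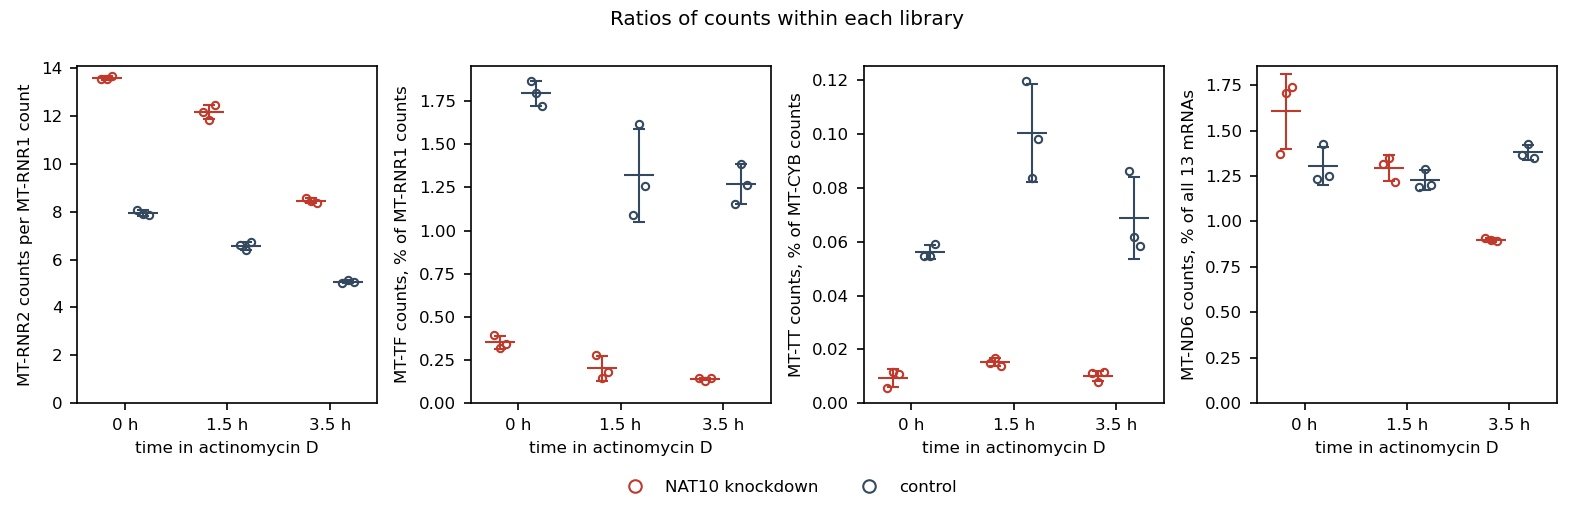
Ratios of raw counts within each library (y axes, from 0; circles, libraries; bars, mean and SD of 3), NAT10 knockdown left of control at 0, 1.5 and 3.5 h in actinomycin D: MT-RNR2 per MT-RNR1 count, MT-TF as a percent of MT-RNR1, MT-TT as a percent of MT-CYB and MT-ND6 as a percent of the counts of all 13 mRNAs. The first 3 do not overlap between genotypes at any time; the share of MT-ND6 is below 0.92% in knockdown and above 1.34% in control libraries at 3.5 h.

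Over time in actinomycin D nearly all mitochondrial RNAs fell when scaled by the ERCC spike-in, which keeps a fall shared by most transcripts visible. In control cells 21 of the 23 genes were lower at 1.5 h than at 0 h, where 74.6% of all genes were lower and 0.0119% higher. At 3.5 h 22 were lower, where 81.7% of all genes changed, 81.1% downwards and 0.591% upwards. In knockdown cells 14 were lower at 1.5 h, where 47.4% of all genes were, and 21 at 3.5 h, where 97.3% were. The count of 14 is sensitive to single libraries. It was 5 without 0 h knockdown replicate 1 or without 1.5 h knockdown replicate 2, where 17.6% and 12.4% of all genes were called. Over all such omissions it spanned 5 to 17. The median log2 change at 3.5 h was -1.20 in knockdown and -1.16 in control, against -1.47 and -1.14 over all genes. ERCC scaling is the noisier of the scales, with a common coefficient of biological variation of 16.3% against 6.29% for TMM.

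The classes differed in how much was left. MT-RNR1 was not called lower at 3.5 h in either genotype. Its level was 117%, 119% and 93.2% of the knockdown 0 h mean in 3.5 h knockdown libraries, and 78.8%, 109% and 89.1% of the control 0 h mean in 3.5 h control libraries, overlapping ranges. MT-RNR2 stood at 68.4% ± 9.4 in knockdown and 59.0% ± 11 in control at 3.5 h (SD, n = 3 each). The mRNAs fell to between 25.1% (MT-ND1) and 61.1% (MT-ND3) in knockdown and between 19.5% (MT-ND1) and 57.3% (MT-CO1) in control. MT-ND1 had least left of the mRNAs in both genotypes, with 27.6%, 26% and 21.6% in knockdown libraries and 16.1%, 23.4% and 19.1% in control libraries, which overlap. MT-ND2 and MT-ND5, also of complex I, came next in control with 20.8% and 30.0% left. At 1.5 h the mRNA with the largest fall was MT-ND5 in knockdown, at 57.6%, 47.2% and 65.2%, and MT-ND2 in control, at 36.2%, 32.6% and 35.9%. The mean percent left was higher in knockdown than in control for every mRNA at that time. MT-CO1 was the mRNA with most left in control at 3.5 h, and had 55.2% left in knockdown. Its control mean was lower at 1.5 h, at 44.1%, than at 3.5 h. The control means of MT-ATP8, MT-ND6, MT-RNR1, MT-TF and MT-TE were also higher at 3.5 h than at 1.5 h, and in knockdown that of MT-RNR1. These later rises on the ERCC scale were not tested. Among tRNAs the neighbours MT-TC and MT-TY on the light strand had little left in both genotypes. MT-TC had 15.8% left in knockdown and 15.5% in control, and MT-TY had 17.5%, 13.5% and 15.4% left in knockdown libraries and 8.69%, 15.8% and 15.6% in control libraries. MT-TV, on few counts, had 24.4% left in knockdown and 15.0% in control. Percents between genotypes are each relative to that genotype's own 0 h mean, so they do not compare levels.

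**Figure D4:**
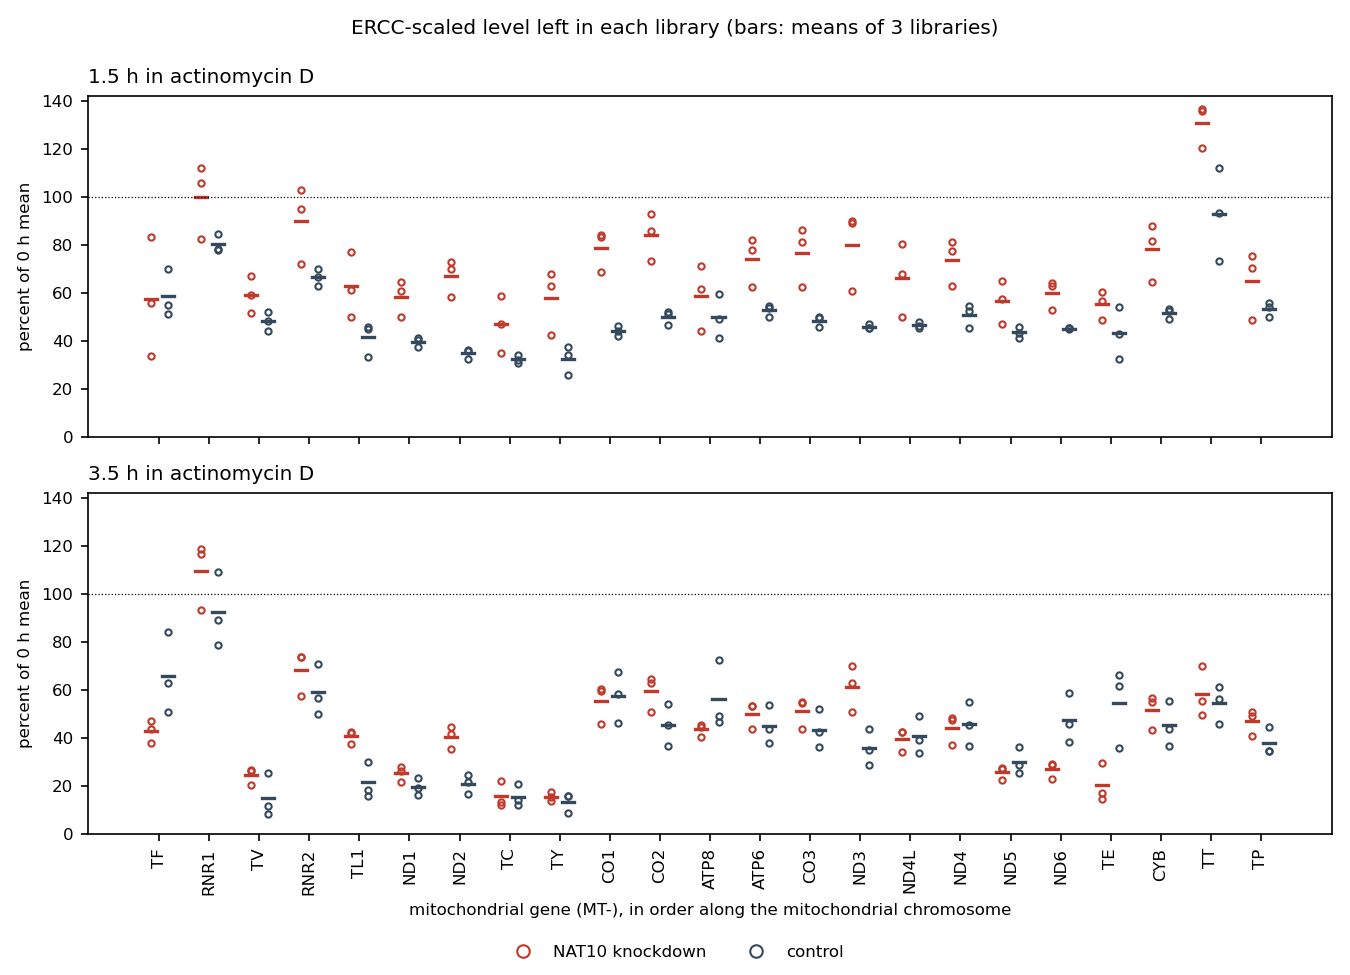
ERCC-scaled level as a percent of that genotype's own 0 h mean (y axis, from 0; circles, libraries; bars, means of 3), NAT10 knockdown left of control for each of the 23 genes in chromosome order (x axis), after 1.5 and 3.5 h in actinomycin D. MT-RNR1 stays near 100% at 3.5 h (109.5% in knockdown and 92.3% in control). The mean of every mRNA lies higher in knockdown at 1.5 h. At 3.5 h the means of MT-ND1, MT-ND2, MT-CO2, MT-ATP6, MT-CO3, MT-ND3 and MT-CYB lie higher in knockdown and those of the other mRNAs lower. Of these higher ones, only MT-ND2 and MT-ND3 have libraries that do not overlap at 3.5 h. Of the tRNAs, MT-TE and MT-TF lie lower in knockdown at 3.5 h and the others higher.

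Whether the fall itself differed between genotypes was tested as the difference in straight-line slope, knockdown minus control, in log2 per hour over all 18 libraries. It was called for 4 of the 23 genes, 2 in each direction, where 13.4% of all genes tested were called, 2.40% upwards and 11.0% downwards. MT-ND2 fell more slowly in knockdown (slope difference 0.26 ± 0.076, adjusted p = 0.00957). It had 44.6%, 41.7% and 35.2% left in 3.5 h knockdown libraries and 16.6%, 24.5% and 21.4% in 3.5 h control libraries, without overlap. MT-ND3 also fell more slowly (0.21 ± 0.077, adjusted p = 0.0471), with 70.1%, 62.6% and 50.6% left in knockdown libraries and 28.5%, 43.8% and 34.9% in control libraries. Both encode complex I subunits and lie on the heavy-strand transcript, as do MT-ND1, MT-ND4, MT-ND4L and MT-ND5, which were not called. The slope differences of those uncalled genes were 0.093, -0.027, -0.024 and -0.076. The 2 genes with a steeper fitted fall in knockdown are neighbours on the light-strand transcript. The other light-strand genes tested, MT-TC, MT-TY and MT-TP, were not called and lay the other way, at 0.026, 0.067 and 0.089. MT-ND6, also a complex I subunit, had 29.1%, 28.5% and 22.7% left in knockdown libraries and 38%, 58.6% and 45.6% in control libraries (-0.25 ± 0.076, adjusted p = 0.0142). MT-TE, which directly precedes MT-ND6 on its strand, had 17.0%, 29.5% and 14.6% left in knockdown libraries and 35.6%, 61.6% and 66.4% in control libraries (-0.43 ± 0.13, adjusted p = 0.0163), from 11 to 19 and 30 to 49 counts. The library groups of neither gene overlapped at 3.5 h. At 1.5 h both lay the other way, MT-ND6 with 59.8% ± 6.2 left in knockdown and 45.0% ± 0.18 in control, and MT-TE with 55.2% ± 5.9 in knockdown and 43.1% ± 11 in control (SD, n = 3 each), although the MT-TE libraries overlapped at that time. In control neither mean fell further after 1.5 h, with 47.4% of MT-ND6 and 54.5% of MT-TE left at 3.5 h. A straight line does not follow such a course, so these 2 calls do not show a faster fall throughout.

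These slope calls rest on few libraries. Leaving out 1 library at a time left between 1 and 5 genes called, where 6.58% to 27.9% of all genes were. The lowest count, 1, came without control 3.5 h replicate 3, and 2 were called without control 3.5 h replicate 2, knockdown 3.5 h replicate 1 or knockdown 3.5 h replicate 3. The call for MT-ND2 held in all of these omissions, at 0.19 to 0.32 log2 per hour. That for MT-ND3 was lost in most of them, that for MT-ND6 without control 3.5 h replicate 2 or 3 or knockdown 3.5 h replicate 3, and that for MT-TE without any of those or knockdown 3.5 h replicate 1. Scaling by heavy-strand mRNA counts, which include MT-ND2 and MT-ND3, called the same 4 genes. MT-ND6 was then at -0.27 and MT-ND2 at 0.25 log2 per hour. The other 19 genes were not called, among them MT-TL1 at 0.27 ± 0.12 (adjusted p = 0.102) and MT-TF at -0.17 ± 0.093 (adjusted p = 0.187). Their slope differences spanned -0.17 to 0.27 log2 per hour, and the median over all genes tested was -0.10.

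**Figure D5:**
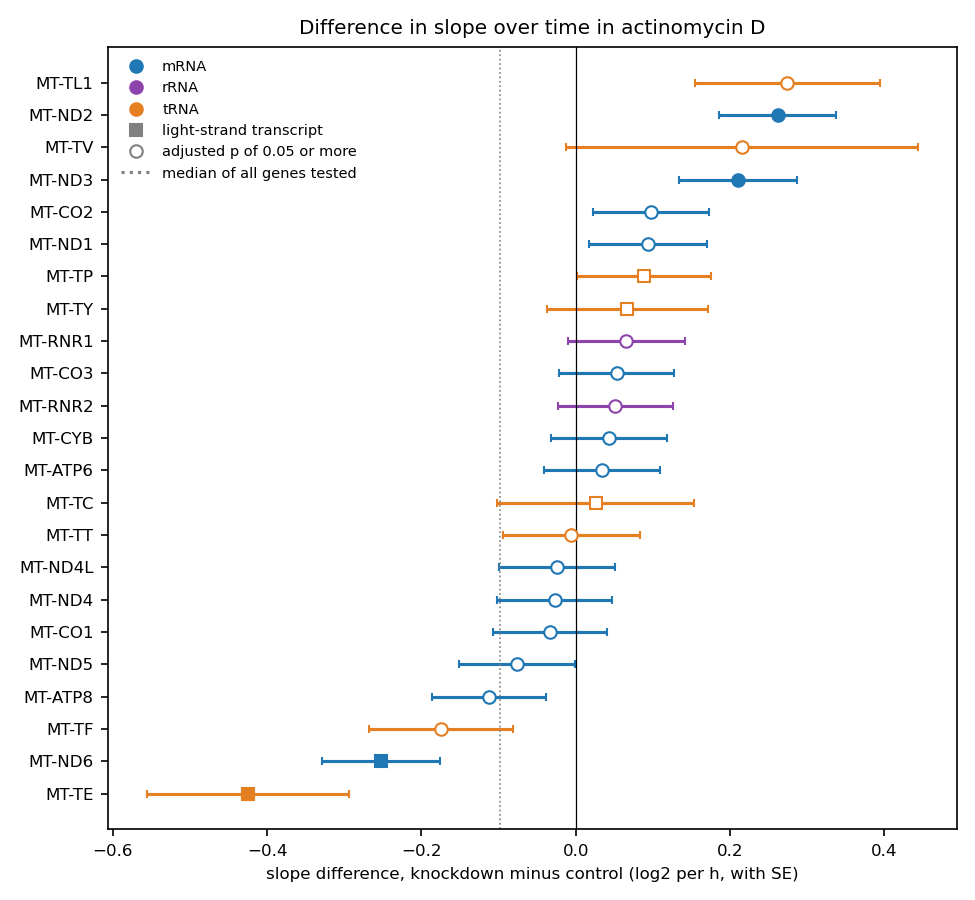
Difference in slope over 0, 1.5 and 3.5 h in actinomycin D, NAT10 knockdown minus control, in log2 per hour (x axis, with SE) for each of the 23 mitochondrial genes (y axis), with the median of all genes tested as a dotted line. The 4 filled points, MT-ND2 and MT-ND3 on the right and MT-ND6 and MT-TE on the left, had an adjusted p below 0.05.

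The authors' deposited table of half-lives lists 23 of the 37 genes, 22 of them with a value in both genotypes. Of these 22, the authors' deposited table gives 18 a longer half-life in knockdown and 4 a shorter one, where 32.6% of the 12306 genes with both values are longer. The median over the 13 mRNAs is 3.01 h in knockdown and 2.62 h in control in the authors' deposited table, while that over all genes is 2.55 h in knockdown and 3.05 h in control. MT-ND3 is at 4.81 h in knockdown and 1.98 h in control, and MT-ND2 at 2.63 h in knockdown and 1.23 h in control, in the authors' deposited table. The 4 shorter ones in the authors' deposited table are MT-TF (2.52 h in knockdown and 5.41 h in control), MT-TE (1.61 h in knockdown and 3.07 h in control), MT-ND6 (1.89 h in knockdown and 2.62 h in control) and MT-ATP8 (2.58 h in knockdown and 3.54 h in control). MT-RNR1 has a control half-life of 60.6 h and no knockdown value in the authors' deposited table. That table carries no error for a half-life and rests on these same libraries. By the slopes fitted here, 14 of the 23 genes tested fell more slowly in knockdown and 9 faster. MT-CO1, MT-ND4, MT-ND4L, MT-ND5 and MT-TT are longer in knockdown in the authors' deposited table. Their slope differences lay towards a faster fall in knockdown and were not called.

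Nuclear genes that make, process, modify or degrade mitochondrial RNA were followed as a list of 42, all of which passed the filter. At 0 h, 17 were lower, 2 higher and 23 not called, where 28.3% of all genes were lower and 23.8% higher. The median log2 change was -0.18 where that of all genes was -0.04. TRNT1, which adds CCA to tRNA ends, fell most, at 34.9, 29 and 29.4 CPM in knockdown libraries, below the 52.1, 50.2 and 54.3 CPM of control libraries (-0.75 ± 0.072). TFB2M, a transcription initiation factor, was at 23.3, 18.9 and 18.3 CPM in knockdown libraries and 31.9, 30.1 and 35.1 CPM in control libraries (-0.68 ± 0.089). The 2 that were higher were NSUN4, an rRNA methyltransferase (0.45 ± 0.084), and MGME1, a mitochondrial DNA exonuclease (0.26 ± 0.073). At 1.5 h, 11 were lower and 4 higher, where 26.2% of all genes were lower and 28.4% higher. TRMT10C, a subunit of the enzyme that cuts tRNA 5′ ends, was lowest at -0.90 ± 0.081, and TFB2M was at -0.80 ± 0.092. NSUN4 and MTERF4 were highest at 0.51 and 0.22. At 3.5 h, 22 were higher and 6 lower, where 35.0% of all genes were higher and 26.4% lower. The median was then 0.37 where that of all genes was 0.08. FASTKD5, needed to mature transcripts not flanked by tRNAs, had the largest rise at that time, at 8.03, 8.88 and 7.95 CPM in knockdown libraries and 2.04, 2.25 and 1.96 CPM in control libraries (1.99 ± 0.18). MTERF1, a termination factor, was 1.16 ± 0.22 higher, while TRNT1 and ELAC2, which cuts tRNA 3′ ends, were lower at -0.47 and -0.38. The mitochondrial RNA polymerase gene POLRMT was at -0.03, 0.02 and 0.20 at the 3 times and the mRNA-stability factor LRPPRC at -0.07, -0.08 and -0.04, neither called at any time. The LRPPRC partner SLIRP was called only at 3.5 h (-0.20 ± 0.067), TFAM, which packages the DNA, only at 1.5 h (-0.27 ± 0.084), and the poly(A) polymerase MTPAP was lower at 0 h (-0.23 ± 0.081) and higher at 3.5 h (0.43 ± 0.086). Scaled by ERCC counts, 39 of the 42 were lower at 0 h, where 64.1% of all genes were, 34 at 1.5 h, where 49.7% were, and 28 at 3.5 h, where 71.7% were. The 1 higher at 3.5 h was FASTKD5, at 0.93.

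Nuclear DNA holds near-identical copies of mitochondrial genes, and reads from the mitochondrial RNAs can be assigned to them. Of the pseudogenes, 5 reached 100 counts in some library. MTND2P28 (chr1:629640-630683, GRCh38), 98.4% identical to MT-ND2 over 1042 bases, held 10.7% as many counts as MT-ND2, and MTATP6P1 (chr1:633696-634376), 98.5% identical to MT-ATP6 over 681 bases, held 11.2% as many as MT-ATP6. MTCO1P12, MTCO3P12 and MTND4P12 each held under 1% of their counterpart, at 0.577%, 0.166% and 0.119%. At 3.5 h MTND2P28 was 1.25 ± 0.065 higher in knockdown where MT-ND2 was 1.23 ± 0.060, and MTATP6P1 was 0.49 ± 0.058 higher where MT-ATP6 was 0.44 ± 0.037. The counts of MT-ND2 and MT-ATP6 are uncertain, by an amount that was not measured, since the treatment of multiply mapped reads is not stated in the labels or the files' headers.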

How the data were processed

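Gene-level counts of 18 RNA-seq libraries (poly(A)-enriched, per the labels' protocols) were used as the authors deposited them. Per the submitters' processing notes, reads passed through fastp 0.21.1, HISAT2 2.2.1, SAMtools 1.12 and featureCounts 2.0.3 on hg38; for the strand setting, the annotation and multiply mapped reads, no label or header gives any information. The authors' deposited signal values equal the counts times a factor per gene and a factor per library, which lies within 0.17 log2 of an ERCC scale, and were used only for that check. The authors' deposited half-lives, in hours, were copied for description. The log2 ratio of the half-lives that the authors deposited was copied with them.

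Genes passing edgeR's filterByExpr (16760 kept, 45100 removed) were fitted in quasi-likelihood models (edgeR 4.0.16, R 4.3.3), with Benjamini-Hochberg adjustment over all genes tested and a threshold of 0.05. Group comparisons came from a model of all 6 groups, fitted separately for each scaling. The slope difference came from a separate model with a straight line in hours for each genotype. Knockdown against control at each time used TMM factors. Changes over time and the slope difference used summed counts of the 92 ERCC transcripts, 27 of which had at least 10 counts in every library. The scripts were tested on simulated counts. Symbols and coordinates came from GENCODE v29; tRNA sequences were read from its transcripts, and pseudogenes were aligned to the mitochondrial genes with blastn 2.17.0. The other scalings and the DESeq2 1.42.0 Wald test tried are given in the closing section. The members, lists and tests were chosen with earlier results of these data known. All mRNAs and rRNAs were named, and the tRNAs that passed the filter. Values of every library were given for MT-ND6, both rRNAs and the largest rise and fall of each class in each comparison; others with such values were added after they were seen. Of 42 nuclear genes, those named were the 2 largest rises and falls called at each time, with POLRMT, TFAM, LRPPRC, SLIRP and MTPAP.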

Additional observations from a re-analysis of the deposited data

Results flagged for a closer look

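The slope over time in actinomycin D differed between the genotypes, by the test of the difference itself, for 4 of the 23 mitochondrial genes tested, where 13.4% of all genes tested were called. The slope difference, knockdown minus control, was 0.26 log2 per hour for MT-ND2, with slopes of -0.37 in knockdown and -0.63 in control. For MT-ND3 it was 0.21 log2 per hour, with -0.20 in knockdown and -0.41 in control. For MT-ND6 it was -0.25 log2 per hour, with -0.55 in knockdown and -0.29 in control. For MT-TE it was -0.43 log2 per hour, with -0.65 in knockdown and -0.23 in control. The calls for MT-ND3, MT-ND6 and MT-TE were each lost when single libraries were left out, and that for MT-ND2 held in every such omission.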

How the results depend on the processing

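Alternatives were other scalings, no filter, the compared groups alone, DESeq2, the replicate block and leaving out each library; scaling by heavy-strand mRNA counts was added after the data were seen. For knockdown against control 19 to 20, 13 to 16 and 14 to 18 genes were called at 0, 1.5 and 3.5 h with 1 library left out. The shares of all genes called were then 46.7% to 56.9%, 49% to 50% and 56.9% to 57.6%. For 1.5 h against 0 h the range was 20 to 22 in control, where 42.4% to 80.3% of all genes were called. In knockdown it was 5 to 17, where 12.4% to 60.6% were. For 3.5 h against 0 h it was 20 to 22 in control, where 72.8% to 84% of all genes were called. In knockdown it was 20 to 21, where 94.6% to 97% were. For the slope it was 1 to 5, where 6.58% to 27.9% were. The 14 genes called in knockdown at 1.5 h against 0 h (47.4% of all genes) became 8 with TMM (17% of all genes) and 8 with the compared groups alone (26.5%), and the 4 slope calls (13.4%) became 13 with TMM (31.6%) and 2 with 0 h and 3.5 h only (7.83%). DESeq2 called 18, 16 and 16 genes at the 3 times, and 48.2%, 51.3% and 58.1% of all genes. TMM turned these changes over time: in knockdown at 3.5 h MT-ATP6 0.52, MT-ATP8 0.35, MT-CO1 0.66, MT-CO2 0.76, MT-CO3 0.56, MT-CYB 0.57, MT-ND2 0.21, MT-ND3 0.83, MT-ND4 0.33, MT-ND4L 0.19, MT-RNR2 0.99, MT-TF 0.33, MT-TL1 0.23, MT-TP 0.46 and the mRNA median 0.35; in knockdown at 1.5 h MT-RNR2 0.39 and the mRNA median 0.10; in control at 3.5 h MT-ATP8 0.28, MT-CO1 0.33, MT-ND6 0.031, MT-RNR1 1.01, MT-RNR2 0.36, MT-TE 0.24, MT-TF 0.51 and MT-TT 0.26; in control at 1.5 h MT-RNR1 0.35 and MT-RNR2 0.075; and the slope difference of MT-ND4 0.092. ERCC scaling turned knockdown against control at 3.5 h for MT-ATP6 -0.63, MT-ATP8 -0.71, MT-CO2 -0.68, MT-CO3 -0.95, MT-CYB -0.51, MT-ND1 -0.70, MT-ND3 -0.33, MT-ND4 -0.96, MT-ND4L -0.98, MT-RNR2 -0.96, MT-TL1 -0.46 and the mRNA median -0.71, at 1.5 h for MT-ND6 -0.30 and the mRNA median -0.32, and at 0 h for MT-ATP8 -0.34. Heavy-strand mRNA scaling turned 0 h values of MT-ATP6 0.21, MT-CYB 0.29, MT-ND2 0.21, MT-ND4 0.091, MT-ND4L 0.053, MT-ND5 0.12, MT-ND6 0.30 and the mRNA median 0.091, and 3.5 h values of MT-CO3 -0.051, MT-ND4 -0.059 and MT-RNR2 -0.060. That scale holds the sum of the heavy-strand mRNAs equal, so the turns of these mRNAs are no test of their changes. Total counts turned MT-ATP6 0.036 and MT-CYB 0.11 at 0 h. For comparisons with 1.5 h, these lists cover only MT-ND6, both rRNAs, the mRNA median and the largest rise and fall called in each class. Knockdown against control at 1.5 h also turned with ERCC scaling for other mRNAs, among them MT-CYB at -0.11 and MT-ATP6 at -0.29. The median slope difference of the mRNAs ran from -0.021, without control 0 h replicate 1, to 0.090 with 1 library left out. ERCC scaling moved the split of mitochondrial genes to 22, 15 and 20 lower at the 3 times. The cause of these moves was not tested. Correlations of deviations between same-numbered libraries ran from -0.65 to 0.61. Differently numbered libraries were not compared, so these do not show whether the samples were paired. With the replicate block 19, 16 and 18 genes were called at the 3 times, where 51.9%, 54.4% and 61.1% of all genes were. Over time 21 and 22 were called in control (72.8% and 81.2% of all genes) and 12 and 21 in knockdown (43.4% and 97.3%). For the slope 3 were called, where 12.8% of all genes were. Low counts limit the precision of MT-TT, MT-TV and MT-TE, which had at most 57, 29 and 49 in any library.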
